A study of Mus musculus with 12 samples.

Results

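The genes described here encode the proteasome, and they were followed in mouse eggs that matured after siRNA against the mRNA decapping proteins Dcp1a and Dcp2. Genes were taken by name, as every gene whose only symbol on the array starts with Psma, Psmb, Psmc, Psmd, Psme, Psmf or Psmg followed by a digit. This gave 49 of the 18193 genes with a single symbol on the array, through 103 probe sets. Of these, 47 code for proteasome subunits, assembly chaperones or regulators. The others are Psmc3ip, a meiotic recombination factor, and Psme3ip1, a partner of an activator. Both match the rule by symbol but belong to none of these classes, and were counted apart. The 47 comprise 7 α ring and 7 β ring genes of the core, 5 special core subunits, 6 ATPases and 11 non-ATPases of the regulatory particle, 3 of its assembly chaperones, 4 core assembly chaperones, and 4 activators and inhibitor. The core against regulatory particle comparison used the 14 α and β ring genes and the 17 ATPase and non-ATPase genes. Psme2 shares its probe set with Psme2b, and genes on probe sets with more than 1 symbol were left out.

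Full-grown CF1 mouse oocytes were injected with control siRNA, with Dcp1a siRNA, with Dcp2 siRNA or with a mixture of both, called double siRNA here. Dcp2 is the enzyme that removes the 5′ cap of mRNA, and Dcp1a is its activator. All groups were kept in CZB medium with milrinone, which blocks meiotic resumption, for 20 h and then matured without it for 18 h to eggs arrested at metaphase of meiosis II (MII). Each group had 3 biological replicates, each a pool of RNA from 30 eggs on 1 Affymetrix array. The siRNAs were pools of several sequences, and no uninjected eggs were among these samples.

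The proteasome is the protease that degrades ubiquitin-tagged proteins. Its barrel-shaped 20S core has outer rings of α subunits, which gate the entry, and inner rings of β subunits, 3 of which carry the active sites. The 19S regulatory particle binds ubiquitin chains, unfolds the substrate with a ring of ATPases and feeds it into the core. In oocytes, proteasomal destruction of cyclin B and securin drives anaphase of meiosis I, and maturing oocytes make almost no new RNA, so that mRNA levels are set mainly by stability, polyadenylation and decay of stored transcripts.

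The 250 bases before the transcription start of the 5 subunit genes that passed the test in double siRNA against control eggs are shown first, because these are the members that moved. Sequences are from RefSeq on GRCm38.p6 and read 5′ to 3′ on the gene's strand. Capitals mark TGACNNNGC, the core of the antioxidant response element through which Nfe2l1 raises proteasome genes in somatic cells, or CCGGAAG, an Ets-type site. The regions are chr11:107479278-107479527 on the plus strand for Psmd12, chr14:14120946-14121195 on the minus strand for Psmd6, chr11:70525107-70525356 on the plus strand for Psmb6, chr7:28050093-28050342 on the minus strand for Psmc4 and chr12:100109952-100110201 on the plus strand for Psmc1.
Psmd12: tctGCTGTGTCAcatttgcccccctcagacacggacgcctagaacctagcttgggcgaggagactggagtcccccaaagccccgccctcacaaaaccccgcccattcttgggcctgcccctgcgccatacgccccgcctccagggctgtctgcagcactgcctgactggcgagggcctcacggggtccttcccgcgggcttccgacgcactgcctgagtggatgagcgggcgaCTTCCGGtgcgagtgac
Psmd6: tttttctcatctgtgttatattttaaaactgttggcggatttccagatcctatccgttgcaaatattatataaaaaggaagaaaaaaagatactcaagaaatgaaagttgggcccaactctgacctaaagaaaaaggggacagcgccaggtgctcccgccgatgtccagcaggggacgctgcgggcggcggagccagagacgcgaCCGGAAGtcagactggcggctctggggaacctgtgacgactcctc
Psmb6: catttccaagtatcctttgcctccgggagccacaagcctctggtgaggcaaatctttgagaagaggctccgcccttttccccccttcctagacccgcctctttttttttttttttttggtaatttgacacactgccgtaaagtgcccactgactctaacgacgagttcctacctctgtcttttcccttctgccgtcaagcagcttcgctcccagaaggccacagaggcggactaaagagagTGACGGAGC
Psmc4: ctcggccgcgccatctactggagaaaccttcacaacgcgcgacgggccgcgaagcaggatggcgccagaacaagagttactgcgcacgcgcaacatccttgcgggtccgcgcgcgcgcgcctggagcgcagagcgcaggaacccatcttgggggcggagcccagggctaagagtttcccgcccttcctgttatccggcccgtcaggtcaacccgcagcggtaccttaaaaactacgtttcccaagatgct
Psmc1: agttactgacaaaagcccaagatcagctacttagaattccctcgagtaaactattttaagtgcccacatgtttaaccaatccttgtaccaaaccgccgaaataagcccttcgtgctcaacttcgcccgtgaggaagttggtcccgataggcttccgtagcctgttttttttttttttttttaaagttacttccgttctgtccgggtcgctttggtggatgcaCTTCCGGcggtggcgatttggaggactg
Psmd12 holds TGACNNNGC 247 to 239 bases before the start on the opposite strand, and CCGGAAG 17 to 11 bases before it, also on the opposite strand. Psmb6 holds TGACNNNGC 9 to 1 bases before the start on its own strand. CCGGAAG lies 45 to 39 bases before the start of Psmd6 on its own strand and 28 to 22 bases before that of Psmc1 on the opposite strand. The window of Psmc4 holds neither. Psmc1, the only gene of the 5 that fell, thus carries the same letters as Psmd6 and Psmd12, which rose.

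A promoter was found for 39 of the 47 proteasome genes, and each motif was searched on both strands of these windows, with overlaps allowed. CCGGAAG was present in 12 of 39 proteasome genes (30.8%) and in 7.83% of all 27025 genes with a promoter. GGGCGG, the core of an Sp1 site, was present in 21 (53.8%) against 35.4% of all genes. TGACNNNGC was present in 5 (12.8%: Psmb5, Psmb6, Psmc6, Psmd12 and Psmd9) against 11.5%, CCAAT in 14 (35.9%) against 37.5%, and TATAAA in 4 (10.3%) against 14.3%. These matches describe the letters of the window and are not evidence of bound factors. No genome build belongs to the array values themselves.

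Signals are given as log2 of the deposited intensity, and a gene was represented by its brightest probe set over the 12 arrays. A probe set was tested where it exceeded log2 5 in at least 3 of the 12 arrays, which 11593 did, and a change was called at an adjusted p of 0.05 or less in limma. Levels of different probe sets cannot be compared, because each binds its target with its own efficiency. The targets followed the labels by their brightest probe sets. Dcp1a fell by 3.47 on the log2 scale in double siRNA eggs and by 3.09 in Dcp1a siRNA eggs, and Dcp2 was 4.93 to 6.35 in control eggs and at 2.29 to 2.32 in all arrays with Dcp2 siRNA. The Dcp1a call in Dcp1a siRNA eggs was lost under 14 of 23 alternatives, with the change between −3.39 and −2.74. Another Dcp1a probe set ran from 4.69 to 11.72 in control and was not called there (−0.46 ± 1.66, limma adjusted p = 0.968). The dimmest one changed by −2.87 ± 0.26 (limma adjusted p = 0.00378). Of 14 oocyte markers 13 passed the filter, Figla being the exception. Of the cumulus and granulosa markers on the array 2 of 12 passed (Nr5a2 and Kitl), with a summed intensity of 1600 to 2206 in control and 1289 to 1551 in double siRNA eggs. Of the immune and blood markers 1 of 8 passed (Laptm5), with summed intensities of 118 to 232 and 141 to 305. Summed oocyte markers were 115972 to 155757 in control and 171099 to 184904 in double siRNA eggs, and the part of this difference in the results below was not tested. The 3′ to 5′ difference of the Gapdh control probe sets, a rough measure of integrity in amplified RNA, was 6.60 to 7.46 in control and 7.26 to 7.39 in double siRNA eggs. That of Actb was 7.90, 6.28 and 6.52 in control and 7.47 to 7.61 in double siRNA eggs. The part of this difference in the results below was not tested. In 4 arrays, all 3 controls and Dcp2 siRNA replicate 2, the best correlation was with an array of another group. The gap was widest for control replicate 1 and Dcp2 siRNA replicate 2, whose best correlations (r = 0.988 and 0.986) were with a Dcp1a siRNA array, against at most 0.954 and 0.963 within their own group. For control replicates 2 and 3 the best were 0.972 with a Dcp2 siRNA array and 0.970 with a Dcp1a siRNA array, against 0.967 within the group. In pooled eggs, fewer cells of a type and less RNA per cell cannot be told apart.

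In double siRNA against control eggs, 4 proteasome genes rose and 1 fell among the 36 of 47 that passed the filter, beside 6.62% of all probe sets called higher and 2.1% called lower. Psmb6 (core β ring), Psmc4 (ATPase), Psmd6 and Psmd12 (non-ATPases of the lid) rose by 0.89 to 1.47 on the log2 scale, and the ATPase Psmc1 fell by 1.96. The median change of the 36 was 0.19, against −0.02 for all probe sets tested. At an unadjusted p of 0.05, 11 were higher and 5 lower, where 15.8% and 12% of all probe sets were. The 3 double siRNA arrays lay wholly above the 3 control arrays for 8 of the 36 and wholly below for 4, where 12.9% and 11.8% of all probe sets did so (24.8% either way).

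**Figure D1:**
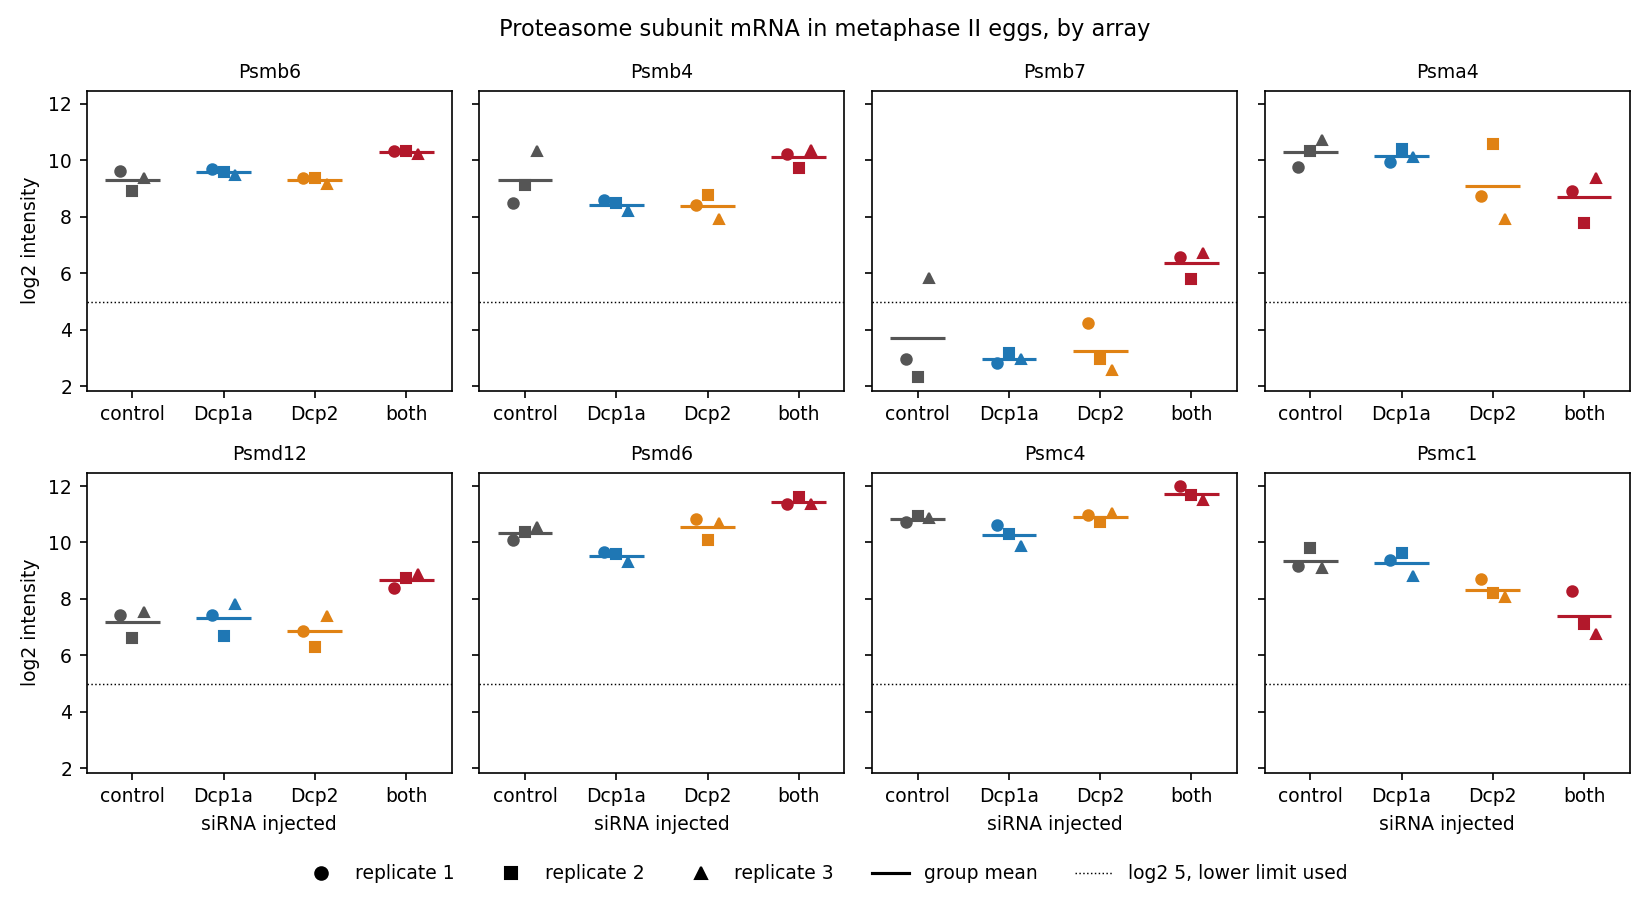
Log2 intensity of proteasome genes in each of the 12 arrays, with 1 panel per gene, the 4 siRNA groups on the horizontal axis, points for arrays by replicate number and a line for the group mean. The double siRNA arrays of Psmb6, Psmd6, Psmc4 and Psmd12 lie above all others, and those of Psmc1 lie at 6.76 to 8.30, below the controls at 9.09 to 9.81.

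Psmb6 encodes the β subunit with the caspase-like active site. Its log2 intensity was 9.64, 8.93 and 9.36 in control, 9.70, 9.58 and 9.47 in Dcp1a siRNA, 9.37, 9.38 and 9.16 in Dcp2 siRNA and 10.34, 10.34 and 10.22 in double siRNA eggs. Every double siRNA array exceeded the other 9, and the rise over control was 0.99 ± 0.19 (SE of the fit, n = 3 arrays per group, limma adjusted p = 0.00956). The subunit with the trypsin-like site, Psmb7, was near the lower end of the scale, at 2.96, 2.32 and 5.82 in control, 2.81, 3.17 and 2.96 in Dcp1a siRNA, 4.24, 2.96 and 2.58 in Dcp2 siRNA and 6.57, 5.80 and 6.71 in double siRNA eggs. It entered the test through 4 arrays above log2 5, the 3 double siRNA arrays and control replicate 3, whose 5.82 overlapped the double siRNA range. Its difference from control did not pass (adjusted p = 0.0524 in limma) and corresponds to a level at least 2.12-fold higher, taking dim values at log2 5. Psmb5, which carries the chymotrypsin-like site, stayed under log2 5 in every array, at 2.70 to 3.88 in control and 3.41 to 4.80 in double siRNA eggs, and was not tested.

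Among the other β ring genes, Psmb4, a subunit without an active site, was 8.50, 9.12 and 10.33 in control and 10.24, 9.74 and 10.37 in double siRNA eggs. Control replicate 3 stood at the double siRNA level, and the difference of 0.80 ± 0.41 did not pass (limma adjusted p = 0.216). In Dcp1a siRNA eggs Psmb4 was 8.61, 8.49 and 8.21, and in Dcp2 siRNA eggs 8.43, 8.78 and 7.91, so all 6 single siRNA arrays lay below every double siRNA array. Psmb2, likewise without an active site, was 9.62, 8.39 and 8.86 in control and 9.64, 10.31 and 9.51 in double siRNA eggs, overlapping by the first control array (0.86 ± 0.31, limma adjusted p = 0.107). Psmb3 differed by 0.34 ± 0.28. Psmb1 was left out by the filter with only 2 arrays above log2 5, at 3.0, 3.0 and 3.39 in control and 5.07, 5.0 and 5.45 in double siRNA eggs. All 5 tested β ring genes had a positive difference from control, a sign that the filter favoured for Psmb7, and only that of Psmb6 was called.

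The inducible counterparts of the catalytic subunits, which form the immunoproteasome, were at the floor. Psmb8 was at 2.29 to 2.72, Psmb9 at 2.29 and Psmb10 at 2.41 to 2.43 over the 12 arrays. The thymus subunit Psmb11 and the testis subunit Psma8 did not exceed 2.41 and 2.35. None of these 5 special subunits gave a level above log2 5 in any array, so the data hold no measured change for them in either direction.

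The α ring showed no common direction. None of its 7 genes, all of which passed the filter, was called in double siRNA against control eggs, 2 of the 7 differences were positive, and their median was −0.16. Psma4 was 9.77, 10.33 and 10.74 in control, 9.95, 10.39 and 10.12 in Dcp1a siRNA, 8.75, 10.59 and 7.92 in Dcp2 siRNA and 8.93, 7.79 and 9.39 in double siRNA eggs. The control and double siRNA arrays did not overlap, but the difference of −1.58 ± 0.60 missed the threshold (limma adjusted p = 0.128), and the Dcp2 siRNA arrays spanned both. Psma6 gave the opposite sign, at 10.20, 10.88 and 11.11 in control, 10.36, 10.44 and 10.14 in Dcp1a siRNA, 10.97, 10.41 and 10.60 in Dcp2 siRNA and 11.56, 12.01 and 11.33 in double siRNA eggs (0.90 ± 0.27, limma adjusted p = 0.0636). This value rests on a probe set of the x_at type, which can bind related transcripts. Another Psma6 probe set, of the plain at type, was 7.94, 6.93 and 7.20 in control and 7.41, 7.60 and 7.21 in double siRNA eggs, with wide overlap, so the 2 disagree. The other 5 α ring genes differed from control by −0.71 to 0.18.

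Averaged over the genes of a ring or class, as the deviation of each gene from its own mean over the 12 arrays, the 5 tested β ring genes lay at 0.86 to 1.00 in double siRNA eggs and at −0.66 to 0.35 in the other 9 arrays. Without Psmb7, an alternative added after the values were seen, the ranges were 0.41 to 0.70 and −0.39 to 0.00. The 10 tested non-ATPases lay at 0.31 to 0.44 in double siRNA eggs and at −0.52 to 0.13 in the rest. They include Psmd14, the deubiquitinase of the lid, which like Psmb7 entered the test through the 3 double siRNA arrays and control replicate 3 (5.26 to 6.38 and 6.49, with the other 8 arrays under log2 5). Without Psmd14, also an alternative added after the values were seen, the double siRNA arrays lay at 0.27 to 0.39 and the rest reached 0.26 in control replicate 1, so the gap between them all but closed. The α ring spanned −0.46 to 0.28 in double siRNA eggs, inside the −1.20 to 0.64 of the other arrays, whose lowest value was Dcp2 siRNA replicate 3 and highest control replicate 3. The 6 ATPases spanned −0.09 to 0.25 against −0.68 to 0.54. With Psmb7 kept in, the β ring range also stayed apart after setting intensities under 32 to 32 and after each of 3 other normalizations. It did so too without the pair of arrays with the widest gap in correlation to their own group. These alternatives were not run without Psmb7, whose entry into the test favoured the double siRNA arrays. These are descriptions of the 12 arrays and carry no test.

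**Figure D2:**
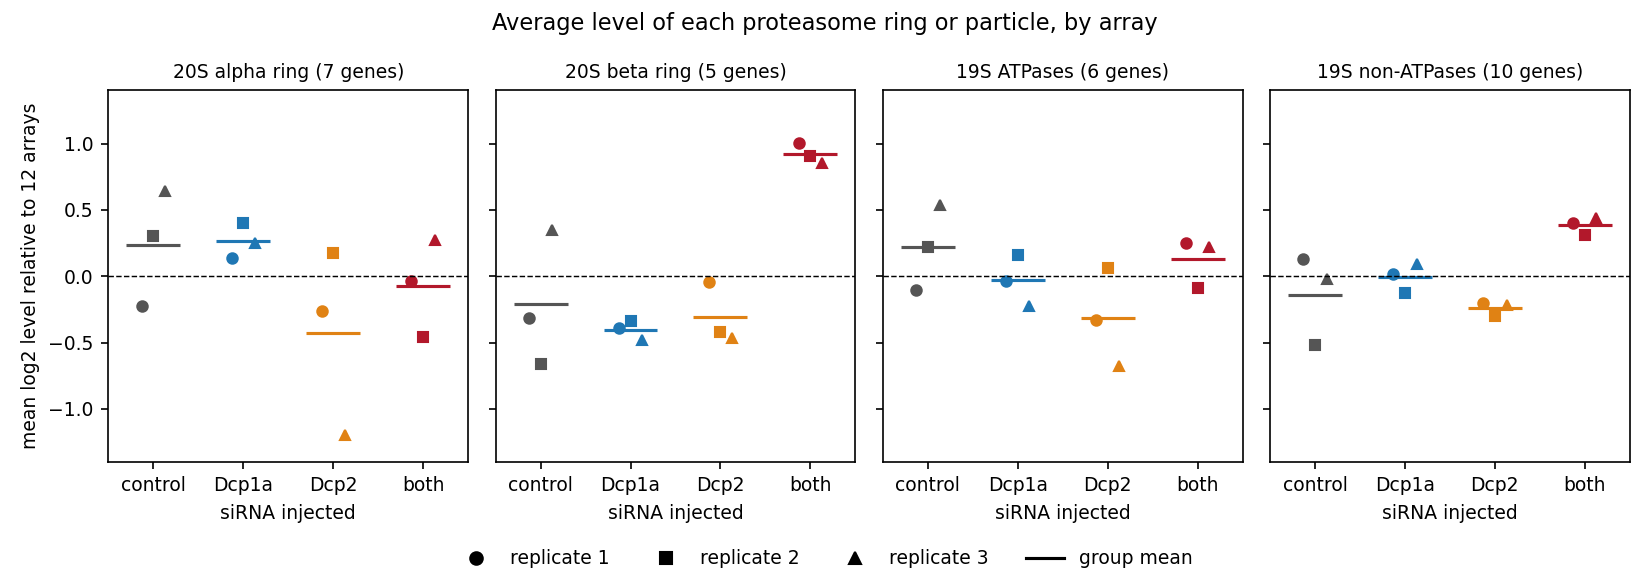
Mean deviation of the tested genes of each proteasome class from their own 12-array means, on the log2 scale, for each array in the 4 siRNA groups, with points for arrays. The double siRNA arrays lie above all other arrays for the β ring, at 0.86 to 1.00 (without Psmb7, 0.41 to 0.70 against up to 0.00). They also do for the non-ATPases, at 0.31 to 0.44 (without Psmd14, 0.27 to 0.39 against up to 0.26). For the α ring and the ATPases they lie within the others' range.

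With Psmb7 and Psmd14 kept in, the core as a whole did not stand apart from the regulatory particle in any group. Psmb7 counts in the core and Psmd14 in the regulatory particle. Both entered the test mainly through the double siRNA arrays, and no difference without them is given here. The mean deviation of the 12 tested core genes minus that of the 16 tested regulatory genes was −0.30, 0.14 and 0.33 in control, −0.08, 0.11 and −0.03 in Dcp1a siRNA, 0.08, 0.09 and −0.50 in Dcp2 siRNA and 0.05, −0.05 and 0.16 in double siRNA eggs. The groups overlapped throughout, with means of 0.058 ± 0.326 in control and 0.053 ± 0.106 in double siRNA eggs (SD, n = 3 arrays). Medians of the change from control were 0.26 for the core and 0.40 for the regulatory particle, and within the core they were 0.86 for the β ring and −0.16 for the α ring.

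Among the regulatory ATPases, Psmc4 and Psmc1 moved in opposite directions. These belong to the hexameric ring that unfolds substrates. Psmc4 was 10.74, 10.92 and 10.86 in control, 10.62, 10.31 and 9.88 in Dcp1a siRNA, 10.96, 10.73 and 11.06 in Dcp2 siRNA and 11.99, 11.70 and 11.49 in double siRNA eggs. All double siRNA arrays exceeded the other 9, and the rise over control was 0.89 ± 0.22 (limma adjusted p = 0.0270). A weaker probe set of Psmc4 was 7.60, 7.07 and 7.22 in control and 7.98, 7.89 and 8.05 in double siRNA eggs, again without overlap. Psmc1 was 9.15, 9.81 and 9.09 in control, 9.37, 9.62 and 8.82 in Dcp1a siRNA, 8.71, 8.22 and 8.07 in Dcp2 siRNA and 8.30, 7.11 and 6.76 in double siRNA eggs. Both groups with Dcp2 siRNA lay below all control arrays, and the fall in double siRNA eggs was −1.96 ± 0.39 (limma adjusted p = 0.0105), while the −1.02 ± 0.39 in Dcp2 siRNA eggs did not pass (adjusted p = 0.425 in limma).

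Psmc2 was 9.62, 10.66 and 11.05 in control, 10.11, 10.49 and 9.82 in Dcp1a siRNA, 10.46, 10.68 and 9.77 in Dcp2 siRNA and 11.34, 11.76 and 11.54 in double siRNA eggs. Its double siRNA arrays were the highest of the 12, but with the spread among controls the difference of 1.10 ± 0.36 missed the threshold (limma adjusted p = 0.0843). Psmc3 was 5.91, 5.24 and 6.27 in control, 5.64, 5.98 and 6.05 in Dcp1a siRNA, 4.47, 6.01 and 5.02 in Dcp2 siRNA and 6.67, 6.34 and 7.25 in double siRNA eggs (0.95 ± 0.40, limma adjusted p = 0.156). Psmc5 and Psmc6 had differences of −0.59 ± 0.37 and −0.92 ± 0.38, neither of them called, so the 6 ATPases divided into 3 positive and 3 negative differences.

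Of the 10 non-ATPases tested, 2 rose. Differences from control were positive for 9, or for 8 of 9 without Psmd14, whose sign the filter favoured, beside 5634 of the 11593 probe sets tested. Psmd6, a lid subunit, was 10.09, 10.39 and 10.54 in control, 9.68, 9.58 and 9.32 in Dcp1a siRNA, 10.82, 10.08 and 10.70 in Dcp2 siRNA and 11.38, 11.60 and 11.35 in double siRNA eggs. The rise over control was 1.10 ± 0.22 (limma adjusted p = 0.0120), and the Dcp1a siRNA arrays, lowest of all, did not overlap the controls (−0.81 ± 0.22, unadjusted p = 0.00373 and adjusted p = 0.853 in limma). A second Psmd6 probe set was 8.42, 7.80 and 8.59 in control, 8.10, 7.93 and 8.22 in Dcp1a siRNA, 7.97, 7.74 and 7.70 in Dcp2 siRNA and 9.14, 8.72 and 9.26 in double siRNA eggs, also highest in every double siRNA array. Psmd12, another lid subunit, was 7.42, 6.62 and 7.54 in control, 7.42, 6.69 and 7.81 in Dcp1a siRNA, 6.86, 6.30 and 7.40 in Dcp2 siRNA and 8.40, 8.73 and 8.88 in double siRNA eggs (rise of 1.47 ± 0.36, limma adjusted p = 0.0294). None of the other 9 arrays, which reached 7.81 at most, came up to its double siRNA arrays. Psmd11, a lid subunit, differed by −0.04 ± 0.16, and Psmd13 was at the floor of 2.29 in all 12 arrays.

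**Figure D3:**
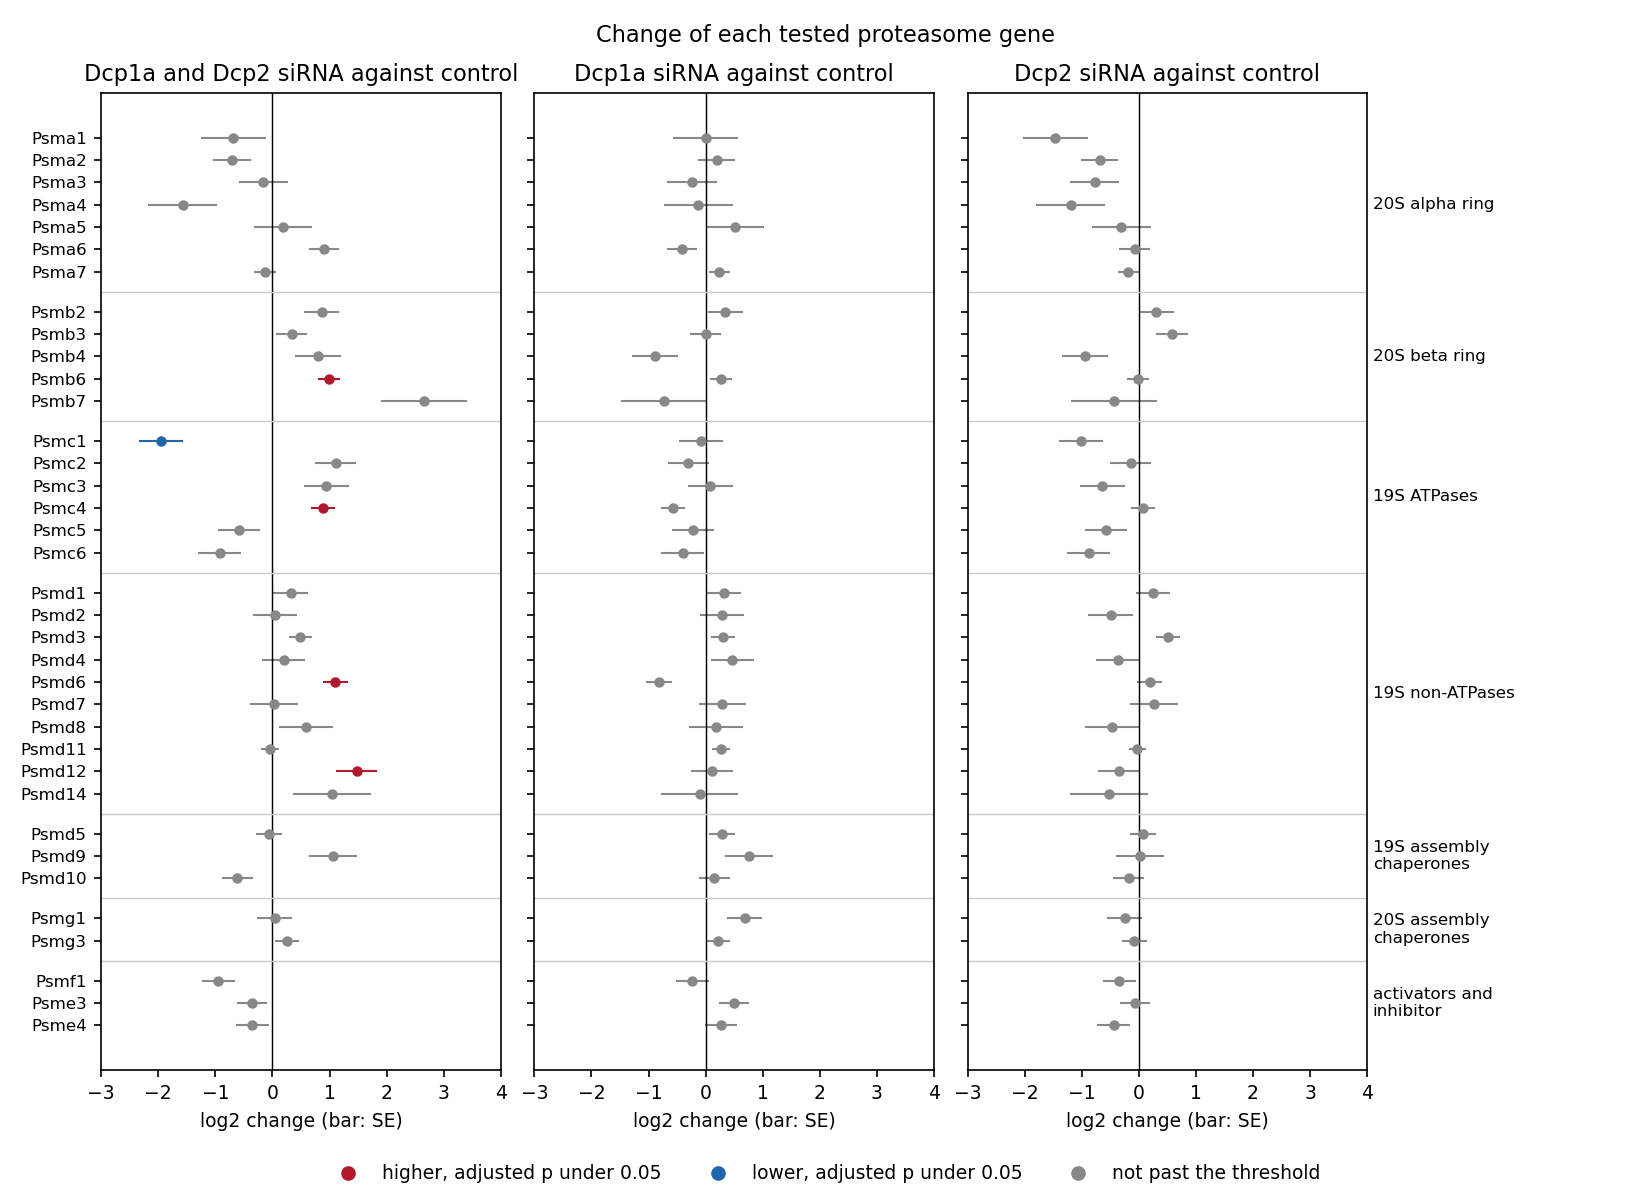
Log2 change of each tested proteasome gene with its SE, grouped by class, with 1 panel for each of double siRNA, Dcp1a siRNA and Dcp2 siRNA against control, called rises in red, called falls in blue and other genes in grey. In the double siRNA panel all 5 tested β ring genes lie to the right of 0, the α ring genes lie on both sides, and Psmc1 at −1.96 lies farthest left.

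The remaining classes gave no called change by their brightest probe sets. The chaperones of 19S assembly Psmd9 and Psmd10 had opposite signs, with Psmd9 at 6.20, 4.52 and 6.14 in control and 6.73, 6.21 and 7.11 in double siRNA eggs (1.07 ± 0.42, limma adjusted p = 0.139). Psmd10 was 9.11, 9.38 and 8.49 in control and 8.51, 8.23 and 8.39 in double siRNA eggs (−0.62 ± 0.27, limma adjusted p = 0.172), with the groups overlapping at the third control array. The core chaperones Psmg1 and Psmg3 overlapped, with Psmg1 at 7.26, 6.63 and 7.53 in control and 7.09, 6.94 and 7.50 in double siRNA eggs. Psmg3 was 6.46, 6.60 and 6.31 in control and 6.90, 6.84 and 6.38 in double siRNA eggs, and Psmg2 and Psmg4 never passed log2 5. Psme3, which forms the nuclear activator PA28γ, was 7.82, 7.08 and 7.80 in control and 6.86, 7.0 and 7.75 in double siRNA eggs (−0.37 ± 0.26, limma adjusted p = 0.367). Psme4, the activator PA200, differed by −0.35 ± 0.29, and Psme1 was at the floor.

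Psmf1, which encodes the proteasome inhibitor PI31, gave opposite answers by probe set. Its brightest probe set was 11.45, 12.09 and 10.99 in control, 11.55, 11.31 and 10.98 in Dcp1a siRNA, 10.98, 11.05 and 11.49 in Dcp2 siRNA and 10.77, 10.67 and 10.23 in double siRNA eggs, lowest in every double siRNA array but not called (−0.95 ± 0.29, limma adjusted p = 0.0669). A second was also lowest there on average, at 8.91, 8.74 and 7.37 in control and 7.19, 7.01 and 7.24 in double siRNA eggs. Another, dimmer one was 4.9, 4.80 and 6.22 in control, 5.06, 4.79 and 5.02 in Dcp1a siRNA, 5.18, 4.67 and 5.14 in Dcp2 siRNA and 7.72, 8.08 and 7.89 in double siRNA eggs. This one rose, to a level at least 5.61-fold above control (limma adjusted p = 0.000975). The probe sets bind different stretches of the transcript, whose positions were not analysed here, so the change of the gene as a whole has no single sign. Its higher and lower probe sets are set side by side in the plot by probe set.

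**Figure D4:**
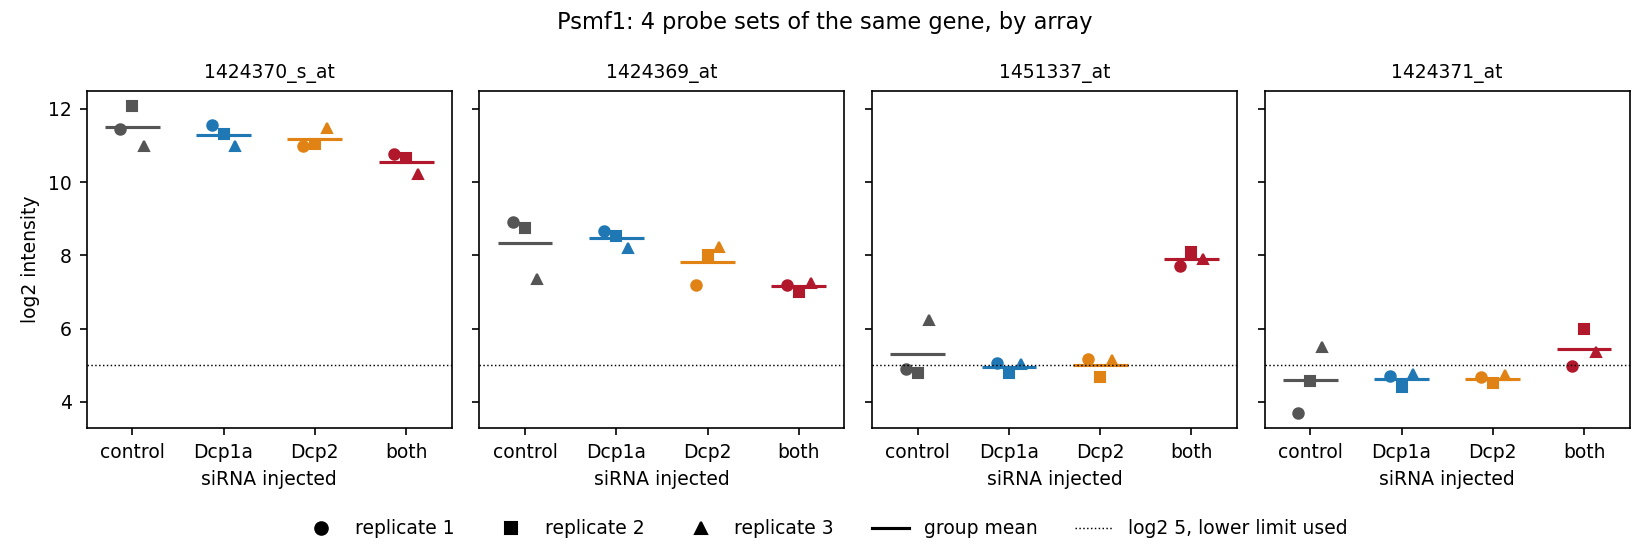
Log2 intensity of 4 Psmf1 probe sets in each of the 12 arrays, with 1 panel per probe set, the siRNA groups on the horizontal axis, points for arrays by replicate number, lines for group means and a dotted line at log2 5. In the panel of the rising probe set the double siRNA arrays lie at 7.72 to 8.08 against 4.67 to 6.22 in the others, while in that of the brightest probe set they are the lowest.

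The call count in double siRNA against control eggs depended on single arrays. It was 5 of 36 with all arrays, 9 without control replicate 1, 2 without control replicate 2, and 10 when control replicate 3 was dropped. Calls over all probe sets moved too, to 1816 higher and 635 lower, 388 and 72, and 882 and 221 under these settings. The proteasome count was 3 and 1 when the double siRNA arrays 1 and 2 were dropped in turn, where all probe sets gave 417 higher and 117 lower, and 368 and 76. With only the 6 arrays of these groups in the fit, limma called 0 proteasome genes, with 13 at an unadjusted p under 0.05. All probe sets then gave 226 higher and 51 lower. Psmb6 lost its call under that setting alone of the 24 tried, Psmd6 under 3, Psmc1 under 5, Psmd12 under 6 and Psmc4 under 7, and each kept its direction under all.

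In eggs with a single siRNA, limma called none of the 36 proteasome genes. For Dcp1a siRNA against control, 1 was higher and 2 were lower at an unadjusted p of 0.05 (Psmg1, and Psmd6 and Psmc4), where 2.98% and 1.94% of all probe sets were and 0.0518% were called. For Dcp2 siRNA, 1 was higher (Psmd3) and 4 were lower (Psma1, Psmb4, Psmc1 and Psmc6), where 3.07% and 8% of all probe sets were and 0.0173% were called. Median changes of the proteasome genes were 0.17 and −0.28, beside 0.09 and −0.11 for all probe sets. Without control replicate 1 and Dcp2 siRNA replicate 2, calls were 1 higher (Psmd4) and 1 lower (Psmd6) in Dcp1a siRNA eggs and 1 higher (Psmd3) and 5 lower (Psma1, Psma2, Psma4, Psmb4 and Psmc6) in Dcp2 siRNA eggs. Calls over all probe sets then numbered 540 higher and 87 lower, and 1018 higher and 1401 lower, and for double siRNA against control the proteasome calls were 8 higher and 3 lower, where all probe sets gave 2059 and 1156.

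The comparisons of double with single siRNA use the same double siRNA arrays as the comparison with control and are not independent of it. Against Dcp1a siRNA eggs, 8 proteasome genes were higher and 1 was lower, beside 8.27% and 3.79% of all probe sets. Psmd6 was higher by 1.91 ± 0.22 (limma adjusted p = 0.000383), Psmc4 by 1.46 ± 0.22 (adjusted p = 0.00150), Psma6 by 1.32 ± 0.27 (adjusted p = 0.00940) and Psmb4 by 1.68 ± 0.41 (adjusted p = 0.0212). Psmb6, Psmc2 and Psmd12 were higher by 0.72 to 1.41, Psmb7, which entered the test mainly through the double siRNA arrays, was at least 2.56-fold higher, and Psmc1 differed by −1.88 ± 0.39 (limma adjusted p = 0.00975). The count fell from 9 to 4 without Dcp1a siRNA replicate 1, to 5 without its replicate 3 and to 4 without double siRNA replicate 1. Calls over all probe sets fell too, from 959 higher and 439 lower to 654 and 157, 602 and 125, and 651 and 142. Among other probe sets, Psmd11 was 10.07, 9.74 and 9.45 in Dcp1a siRNA and 10.46, 11.02 and 10.28 in double siRNA eggs (0.84 ± 0.24, limma adjusted p = 0.0436). Psme4 ranged from 11.40 to 12.11 in Dcp1a siRNA and from 10.53 to 11.19 in double siRNA eggs by its weaker probe set (−0.89 ± 0.25, limma adjusted p = 0.0423). A dim probe set of Psmf1 was at least 7.32-fold higher. One of Psma6, at least 1.42-fold higher, exceeded log2 5 in the double siRNA arrays only and was tested only because of them.

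Against Dcp2 siRNA eggs, 7 proteasome genes were higher and 0 lower in limma, beside 6.12% and 0.25% of all probe sets. At an unadjusted p of 0.05, 1 was lower (Psmc1), where 3.19% of all probe sets were. Psmd12 was higher by 1.82 ± 0.36 (limma adjusted p = 0.0114), Psmb4 by 1.75 ± 0.41 (adjusted p = 0.0254), Psmc3 by 1.59 ± 0.40 (adjusted p = 0.0361) and Psmb6 by 1.00 ± 0.19 (adjusted p = 0.00926). Psmd6 and Psmc4 were higher by 0.91 ± 0.22 and 0.81 ± 0.22 (limma adjusted p = 0.0327 and 0.0492), calls that were lost under 14 and 19 of 24 alternatives, each of 3 other normalizations and the replicate block among them. Psmb7, with the same limit as above, was at least 2.56-fold higher. The Psmc3 call was lost under 11 of 24 alternatives, that of Psmb4 under 6 and that of Psmd12 under 1. That of Psmb7 was lost under 10 of 23, and Psmb6 kept its call under all 24. Leaving out 1 array gave 4 calls without Dcp1a siRNA replicate 1, 3 without its replicate 2, 4, 4 and 2 without Dcp2 siRNA replicates 1, 2 and 3, and 3, 3 and 2 without double siRNA replicates 1, 2 and 3. Calls higher over all probe sets fell from 710 to 604, 614, 588, 568, 533, 458, 461 and 571 in that order. Those lower fell from 29 to between 13 and 23. Centring each array on its median moved the median change of all probe sets from 0.06 to −0.15 and left 5 proteasome calls, where all probe sets gave 480 higher and 51 lower.

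Whether both siRNAs together changed a gene by more than the sum of the single changes was tested as a departure from additivity on the log2 scale. Among the proteasome genes, 3 departed upward and 0 downward in limma, beside 3.9% and 0.0345% of all probe sets, and at an unadjusted p of 0.05 the counts were 9 and 0, beside 9.81% and 1.77%. Psmb4 departed by 2.63 ± 0.57 (limma adjusted p = 0.0272), Psmd6 by 1.72 ± 0.31 (adjusted p = 0.0118) and Psmc4 by 1.38 ± 0.30 (adjusted p = 0.0285), and these calls were lost under 9, 2 and 14 of 23 alternatives. For Psmb4 both single siRNA means (8.44 and 8.37) lay below the control mean of 9.32 and the double siRNA mean of 10.12 lay above it. For Psmd6 the Dcp1a siRNA mean of 9.53 lay below the control mean of 10.34, while the Dcp2 siRNA mean of 10.53 and the double siRNA mean of 11.44 lay above. The weaker Psmd6 probe set departed by 1.42 ± 0.33 (limma adjusted p = 0.0345), while the weaker Psmb4 probe set was not called. The count was 5 without control replicate 1 and 1 without Dcp1a siRNA replicate 2 or 3, Dcp2 siRNA replicate 1 or double siRNA replicate 1. Over all probe sets, 452 calls higher and 4 lower became 546 and 80, 263 and 1, 251 and 1, 354 and 4, and 279 and 1.

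Psmc3ip is not a proteasome subunit gene and encodes a partner of Dmc1 recombinase in meiotic recombination. It was 5.02, 5.08 and 7.55 in control, 5.14, 4.29 and 4.81 in Dcp1a siRNA, 4.53, 5.14 and 4.57 in Dcp2 siRNA and 7.90, 7.69 and 8.30 in double siRNA eggs. It rose by 2.08 ± 0.57 over control (limma adjusted p = 0.0447), and control replicate 3 stood near the double siRNA arrays, as it did for Psmb4 and Psmb7. For the rising Psmf1 probe set it was the highest control, at 6.22, but well below the double siRNA arrays. Psme3ip1 was 7.29, 7.37 and 8.21 in control and 8.18, 7.87 and 8.25 in double siRNA eggs, and its difference was not called (limma adjusted p = 0.228).

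Other genes of ubiquitin and proteasome function were taken from a list of 32, of which 22 had a probe set with a single symbol and 20 were tested. In double siRNA against control eggs 2 were higher and 1 was lower, beside 6.62% and 2.1% of all probe sets, and their median change was −0.22, against −0.02 for all. Nsfl1c, the Vcp cofactor p47, was 3.89, 3.68 and 4.28 in control, 4.03, 3.85 and 4.19 in Dcp1a siRNA, 4.07, 4.03 and 4.06 in Dcp2 siRNA and 5.76, 5.97 and 5.92 in double siRNA eggs, at least 1.84-fold higher than control (limma adjusted p = 0.000142). It exceeded log2 5 in the 3 double siRNA arrays only, so it was tested only because it was high there. Uchl5, a deubiquitinase that docks on the regulatory particle, was 7.76, 7.28 and 6.72 in control, 7.89, 7.31 and 7.17 in Dcp1a siRNA, 6.22, 6.52 and 6.42 in Dcp2 siRNA and 6.31, 6.0 and 6.39 in double siRNA eggs (−1.02 ± 0.28, limma adjusted p = 0.0434). As with Psmc1, all 6 arrays with Dcp2 siRNA lay below every control array. Uba6, a ubiquitin-activating enzyme, was at 2.29 in all control arrays, at 6.13, 5.80 and 5.55 in Dcp1a siRNA, 2.72, 2.29 and 2.29 in Dcp2 siRNA and 5.19, 3.34 and 5.49 in double siRNA eggs. It was the 1 listed gene called in a single siRNA group, at least 1.78-fold higher in Dcp1a siRNA eggs (limma adjusted p = 0.0291). Uba6 exceeded log2 5 only in the Dcp1a siRNA arrays and in double siRNA replicates 1 and 3, so it was tested only because it was high there.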

How the data were processed

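RNA of 30 eggs per sample was extracted, amplified and biotin-labelled by the Affymetrix small-sample protocol, per the labels' protocols. Values are the authors' GCRMA intensities on a linear scale from 4.9, with 1 value for each probe set and array, per the submitters' processing notes. These notes name no version of it. Because this method shrinks dim probe sets towards a shared minimum, 55.6% of the deposited intensities were at or under 5. Between-array normalization hides changes in total mRNA per egg. The number of arrays limits the precision.

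The analysis used log2 intensities. The array has 45101 probe sets, 64 of them controls. The 11593 above log2 5 (intensity 32) in at least 3 arrays were tested with the moderated test of limma 3.58.1, run in R 4.3.3 (4 group means, no trend, 8 residual and 2.97 prior degrees of freedom), two-sided, with Benjamini-Hochberg adjustment over all of them and a threshold of 0.05, in 6 comparisons. The procedure was tested on simulated data. Where the dimmer group's mean or median was at or under log2 5, folds are bounds, computed from the mean of the brighter group and, per dimmer array, the higher of 5 and its own value. Such bounds allow for the floor only. Genes were named from the platform annotation, and all 49 matched the RefSeq gene table of GRCm38.p6 by Entrez number.

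The member genes and lists were chosen with earlier results of these data known. Values in every array are given for members called in any comparison, the pair per class with the smallest p in double siRNA against control, the catalytic subunits with their inducible counterparts, and members whose other tested probe set was called. Pathway genes are named where called. Psmc3ip and Psme3ip1 are given to separate them from subunits, and Psmb1, Psmb2, Psmb3, Psmc5, Psmc6, Psmd11, Psmd13 and Psmd14 were named after their values were seen. Replicates were labelled as independent pools. Whether replicate numbers pair arrays was checked by the correlation of deviations from group means, which ranged from −0.69 to 0.39 over the 18 same-numbered pairs and exceeded 0.1 in 9, so no pairing was used. Alternatives covered the filter, floor, between-array scaling, robust and weighted fits, a replicate block, leaving out arrays, the arrays fitted and any tested probe set of a gene.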

Additional observations from a re-analysis of the deposited data

Results flagged for a closer look

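In 5 probe sets of proteasome genes the effect of 1 siRNA differed with the presence of the other, by the test of the departure from additivity in limma. The departures on the log2 scale were 2.63 ± 0.57 for Psmb4 (adjusted p = 0.0272), 1.38 ± 0.30 for Psmc4 (adjusted p = 0.0285), 1.72 ± 0.31 and 1.42 ± 0.33 for the brighter and the weaker probe set of Psmd6 (adjusted p = 0.0118 and 0.0345), and 3.25 ± 0.47 for the dim Psmf1 probe set (adjusted p = 0.00393). All are positive, as are 3.9% of all probe sets called higher against 0.0345% called lower. The Psmf1 value is a fitted difference of dim values and depends on the floor. The Psmb4 value rests on a probe set of the x_at type, and the weaker Psmb4 probe set was not called. The Psmc4 call was lost under 14 of 23 alternatives, the 3 other normalizations and the replicate block among them, that of Psmb4 under 9 and that of the brighter Psmd6 probe set under 2.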

How the results depend on the processing

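Called members kept their direction under every alternative run, while the small differences of Psmd11 (−0.10 to 0.03) and Psmg1 (−0.22 to 0.23) between double siRNA and control eggs, neither called, changed sign. Alternatives were followed for selected member comparisons and for the levels of Dcp1a and Dcp2. Over all pairs of such a comparison and an alternative, the targets included, the call was the same in 818, gained in 19 and lost in 159. Counts of called proteasome genes moved as follows. For double siRNA against control (5 as reported), there were 2 without a filter on low values, 17 with array weights, 0 when only the arrays compared were fitted (limma, with 13 at an unadjusted p under 0.05) and 11 without control replicate 1 and Dcp2 siRNA replicate 2. All probe sets gave 458 higher and 69 lower of 45037, 2474 and 2169 of 11593, 226 and 51, and 2059 and 1156 in that order. For Dcp1a siRNA against control (0) the last setting gave 2, and for Dcp2 siRNA against control (0) array weights gave 8 and the last setting 6. All probe sets then gave 540 higher and 87 lower, 581 and 1171, and 1018 and 1401. For double against Dcp1a siRNA (9), there were 3 without the filter and 28 with array weights. All probe sets gave 719 higher and 123 lower of 45037, and 3189 and 4857 of 11593. For double against Dcp2 siRNA (7), there were 2 without the filter, 3 with a replicate block, 21 with array weights and 4 when only the arrays compared were fitted. All probe sets gave 465 higher and 24 lower, 594 and 21, 4197 and 2366, and 577 and 13 in that order. For the departure from additivity (3), there was 1 without the filter, 1 with median centring and 8 with array weights. All probe sets gave 155 higher and 5 lower, 356 and 5, and 1052 and 333. The filter changes the number of probe sets adjusted over, the weighted fit stopped before it converged, and for the other settings the cause was not tested. Leaving out each array in turn gave 1 to 10, 0 to 0, 0 to 0, 4 to 10, 2 to 9 and 1 to 5 calls in the same order of comparisons. All probe sets then gave 368 to 1816 higher and 72 to 635 lower, 0 to 331 and 1 to 41, and 0 to 188 and 0 to 35. For the last 3 comparisons they gave 602 to 1083 and 96 to 1291, 458 to 823 and 13 to 40, and 251 to 546 and 1 to 80. The 331 and 41, and the 188 and 35, came without control replicate 1. With a replicate block the proteasome counts in that order were 5, 0, 0, 8, 3 and 2. All probe sets gave 630 higher and 189 lower, 0 and 1, 0 and 2, 800 and 291, 594 and 21, and 330 and 1. Deviations of arrays with different numbers reached r = 0.72, above the highest of any same-numbered pair (0.39), so not every array was closest to its own number. Taking any tested probe set of a gene gave 6 calls against control, 12 against Dcp1a siRNA, 9 against Dcp2 siRNA and 4 departures. This rule can only add calls, as 13 members had several tested probe sets. The share of all genes called under it is not given here, so these counts have no background beside them. The core minus regulatory particle difference between double siRNA and control eggs stayed between −0.19 and 0.13. Over all probe sets, 768 higher and 243 lower in double siRNA against control became 699 and 364 with median centring and 733 and 404 with quantile normalization. Signals near the floor limit Psmb1, Psmb5, Psmb7 and the special subunits, for which small changes were not measurable.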
